A study of Sus scrofa with 20 samples.

Results

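Sole skin was set against flank skin of the pig with 10 of the 20 RNA-seq libraries of the series, 5 placed as sole and 5 as flank, 1 of each from every one of the 5 pigs. Of the sole-matched libraries, 3 carry the label volar (the sole side of the foot) and 2 carry the label flank. Of the flank-matched libraries, 3 carry the label flank and 2 carry the label dorsal (the upper side of the foot). The 6 libraries that kept their label are of the first set, from pigs aged 4, 8 and 7 months. Their library numbers are 27007, 27011 and 27015 for volar and 27006, 27010 and 27014 for flank. The first set also holds the dorsal and snout libraries of these pigs. The 4 others are of the second set, from pigs aged 6 and 5 months, with library numbers 39201 and 39205 placed as sole and 39203 and 39207 as flank. These 4 libraries were chosen by their expression, being closest to volar and to flank of the first set. All pigs were wild-type Yorkshire females, and each library came from a 4 mm skin biopsy kept in RNAlater, so epidermis, dermis, appendages and any fat below are measured together. The set and the ages of its pigs cannot be told apart, and the labels do not say whether a foot was a fore or a hind foot.

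Because expression placed the second-set libraries, every gene was used in placing them. The comparison of 5 against 5 libraries is therefore a description and carries no test. A test was made in the first set alone, volar minus flank as labelled, with 3 libraries each (edgeR quasi-likelihood test, Benjamini-Hochberg adjusted p under 0.05 over 15302 genes). The dorsal and snout libraries of the first set entered its fit too, so the spread was estimated over all 4 sites. Rose, fell and called refer to that test below, and log2 fold changes are from it, ± standard error. That error was worked back from the test, as the fold change over the square root of its F statistic. Where another test (limma-voom), another filter or scaling, or fewer libraries ended a call, that is given beside the gene. Levels are CPM (counts scaled to a common library size) adjusted by the trimmed mean of M values (TMM), so that they are not plain shares of a library. Levels of a library group are listed in the order of the pigs aged 4, 8, 7, 6 and 5 months, so the last 2 values of each group are of the second set. The sole-matched libraries are called soles and the flank-matched ones flanks.

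Skin of the sole is hairless and bears weight. Its keratinocytes leave the basal layer, switch keratin genes and end as corneocytes, dead cells filled with keratin, sealed by a cross-linked protein envelope and embedded in lipid, and on the sole this layer is thick. Flank skin carries hair follicles with sebaceous glands over a collagen-rich dermis and fat. Position along the body and the limb is kept in skin, mainly in its fibroblasts, as the set of HOX genes that are on, and EN1 is the homeobox gene that marks the ventral ectoderm of the limb.

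The 10 libraries held 34077861 to 64074039 assigned counts. The 20 most abundant genes took 34.9% to 48.3% of the counts in the sole-matched libraries and 22.6% to 32.8% in the flank-matched libraries, and 13441 to 14329 genes against 14496 to 15019 genes reached 10 counts. The TMM factors followed, at 0.570 to 0.812 in the sole-matched and 0.982 to 1.193 in the flank-matched libraries. With each gene centred on its set and over the 2000 most variable genes, both second-set sole-matched libraries had Pearson r of 0.87 with the mean of first-set volar. The second-set flank-matched libraries had r of 0.81 (6-month pig) and 0.84 (5-month pig) with first-set flank, against 0.75 and 0.62 with first-set dorsal. The margin of the 6-month library was thus narrow, and among the first-set flank libraries that of the 7-month pig was closer to dorsal (0.71) than to the other flank libraries (0.66). These r are across genes, which are not independent replicates, and they only describe the placement.

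The markers were read next. In the second set they went with the placement and not with the labels, but they were among the genes used in placing the libraries. Their levels therefore only describe the placement and are no support for it. EN1 (ENSSSCG00000015715) stood at 14.8, 9.16, 11.6, 14.7 and 19.9 CPM in soles. Flanks had 0.347, 1.63, 0.675, 1.38 and 3.36 CPM. The groups did not overlap, with the lowest sole-matched library 2.73 times the highest flank-matched one. In the first set EN1 rose (log2 fold change 3.72 ± 0.57, adjusted p = 0.000784). KRT1 (ENSSSCG00000000251), the type II keratin of the suprabasal epidermis, was at 204860, 182080, 219960, 462720 and 384330 CPM in soles. Flanks had 12364, 6868, 10066, 7894 and 6557 CPM. Every sole-matched library was far above every flank-matched one, and both second-set soles were above those of the first set (log2 fold change 4.37 ± 0.27, adjusted p = 7.11e-06). KRT78 (ENSSSCG00000036791), a keratin of late keratinocyte differentiation, was at 2036, 1734, 2087, 7207 and 5834 CPM in soles. Flanks had 1.23, 1.63, 2.86, 6.46 and 5.45 CPM (log2 fold change 9.99 ± 0.66, adjusted p = 7.91e-06).

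The trunk and hair markers ran the other way. HOXC8 (ENSSSCG00000038644), a HOX gene of the trunk, was at 0.659, 1.46, 2.44, 1.14 and 0.662 CPM in soles. Flanks had 8.34, 9.31, 9.2, 14.4 and 14.9 CPM, with no overlap (log2 fold change -2.56 ± 0.42, adjusted p = 0.0022). Its level in the 3 dorsal libraries of the first set was 2.57, 3.54 and 3.43 CPM, so that the second-set libraries labelled dorsal (14.4 and 14.9 CPM) were above both dorsal and flank of the first set. KRT71 (ENSSSCG00000000247), an inner root sheath keratin of hair, was at 0.0254, 0.0778, 0.154, 0.0913 and 21 CPM in soles. Flanks had 193, 1199, 2426, 7564 and 2384 CPM (log2 fold change -13.84 ± 1.31, adjusted p = 6.31e-05). The sole-matched library of the 5-month pig stood apart from the other 4 soles, though it remained below every flank-matched library.

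**Figure D1:**
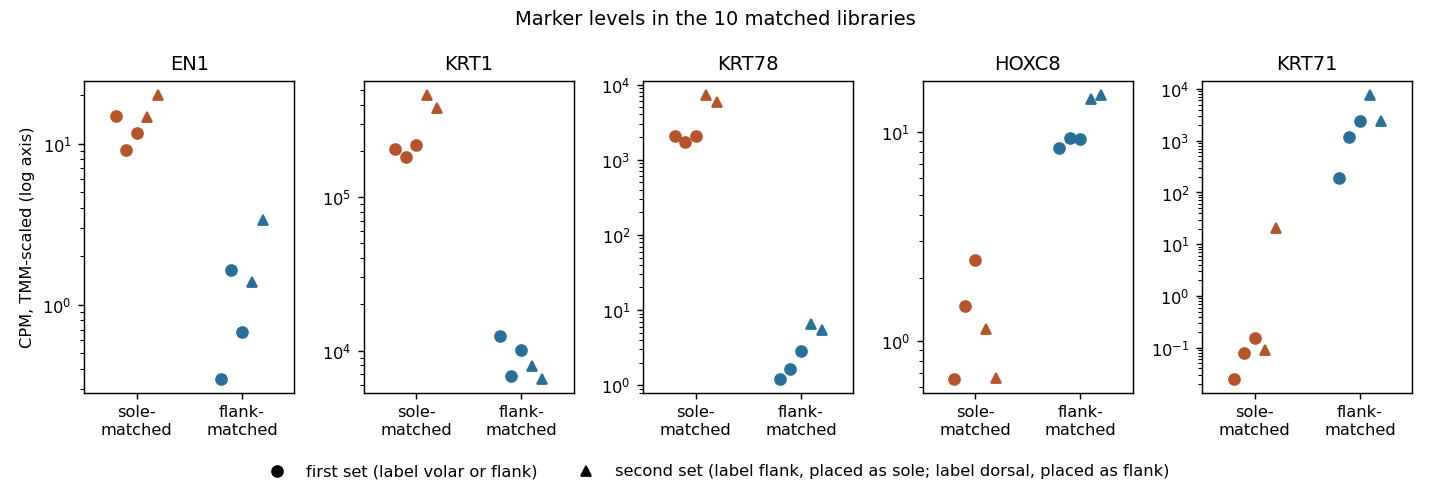
Level of the 5 marker genes in each of the 10 libraries, in TMM-scaled CPM on a log axis; circles are the first set and triangles the second. EN1, KRT1 and KRT78 are higher in all 5 sole-matched libraries and HOXC8 and KRT71 in all 5 flank-matched ones, with KRT71 at 21.0 CPM in the 5-month sole-matched library.

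Across all 15302 genes tested, 5032 were called in the first set, 2588 higher in volar (16.9% of genes tested) and 2444 lower (16.0%). Counts of list members below are to be read against these shares. Over the 10 libraries, 2364 genes had every sole-matched library above every flank-matched one (15.4%) and 2405 the reverse (15.7%). Of the 5032 called genes, 4023 were among these and went the same way, and 1009 had overlapping groups. In the second set alone, 4614 of the called genes had both sole-matched libraries beyond both flank-matched ones in the direction of the first set, 33 in the opposite direction, and 385 overlapped. The second set was placed by its likeness to the first, so these counts and those over the 10 libraries are no replication. How many of all genes tested lay apart in the second set alone was not counted. A further 746 genes did not overlap over the 10 libraries but were not called in the first set. Upper-quartile scaling gave 2096 higher and 2952 lower in the first set, with the median of all genes shifted by -0.09 on the log2 scale. For the 10 libraries, CPM of plain library totals gave 597 genes wholly higher and 6041 wholly lower, and the median difference over all genes was -0.59 in place of -0.04. Small differences below are therefore relative to the TMM scale, and lists whose median changes sign without it are named.

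**Figure D2:**
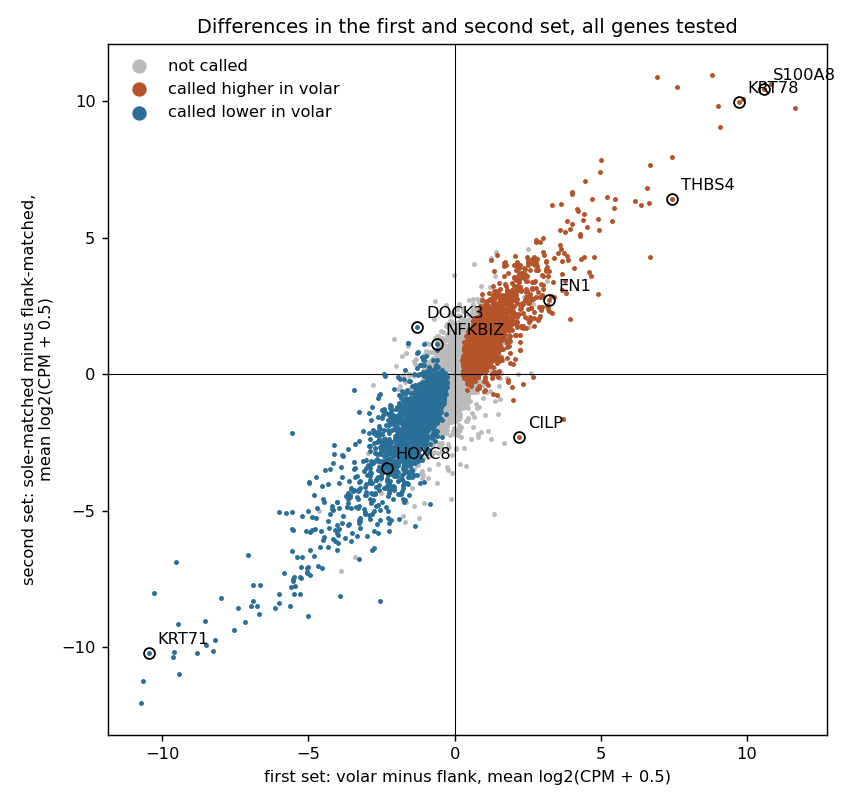
Difference of mean log2(CPM + 0.5) in the first set (volar minus flank, x axis) and in the second set (libraries placed as sole minus libraries placed as flank, y axis) for all 15302 genes tested, coloured by the first-set call. Most called genes lie in the same quadrant in both sets, while CILP, DOCK3 and NFKBIZ, 3 of the 33 genes that ran the opposite way, lie in the others; the second set was placed by expression, so the likeness is a description.

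Among the keratins of terminal differentiation, of 10 members tested, 4 rose, 3 fell and 3 did not pass the test (median log2 fold change 0.68), against a median of -0.05 over all genes tested. Their summed level was 266800, 264300, 285300, 581300 and 460300 CPM in soles, against 16430, 10470, 18550, 12880 and 10600 CPM in flanks. KRT10, the type I partner of KRT1, was at 55090, 57770, 52179, 102630 and 68216 CPM in soles. Flanks had 2348, 2324, 2445, 2539 and 1571 CPM (log2 fold change 4.53 ± 0.29, adjusted p = 7.91e-06). KRT3, a type II keratin known from the human cornea, was at 4639, 22061, 10429, 8417 and 1473 CPM in soles. Flanks had 1.39, 2.82, 4.84, 1.04 and 10.2 CPM (log2 fold change 11.99 ± 1.42, adjusted p = 0.000205). Its level was highest in the 8-month and lowest in the 5-month sole. KRT1, KRT78 and KRT10 were the other members that rose.

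3 keratins of this list fell instead. KRT77, a keratin of eccrine ducts, was at 1.01, 13.2, 5.22, 11.2 and 3.38 CPM in soles. Flanks had 211, 98.6, 109, 83.1 and 98.3 CPM (log2 fold change -4.42 ± 0.74, adjusted p = 0.00144). KRT23 followed with 0.608 to 11.3 CPM in soles and 60.7 to 129.7 CPM in flanks (log2 fold change -3.62 ± 0.86, adjusted p = 0.00943). KRT2, a keratin of the upper spinous layer, was at 52.4, 529.6, 492, 29.8 and 41.8 CPM in soles. Flanks had 1227, 1021, 5757, 2112 and 2220 CPM (log2 fold change -2.9 ± 0.90, adjusted p = 0.0301; call lost without the 8-month volar, 7-month volar or 7-month flank library, adjusted p up to 0.134; call lost with only the 6 libraries of both sites, adjusted p = 0.0802). Soles were thus split for KRT2, with the 8- and 7-month soles far above the other 3. Among basal and simple keratins, of 5 members tested, 0 rose, 4 fell and 1 did not pass the test (median log2 fold change -5.31). KRT15, a keratin of basal cells and of the follicle bulge, fell to 3.65, 14.1, 5.61, 0.457 and 0.418 CPM in soles, against 369, 379.7, 241, 169 and 156 CPM in flanks (log2 fold change -5.41 ± 0.50, adjusted p = 5.14e-05). KRT79 of the follicle infundibulum and sebaceous duct (-6.11 ± 0.81) and the simple keratins KRT7 (-5.31 ± 1.08; call lost with limma-voom, adjusted p = 0.0818) and KRT18 (-2.8 ± 0.66; call lost with limma-voom, adjusted p = 0.0816) fell too. Keratin genes are similar in sequence, and how the estimated counts split reads between them is not known.

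Cornified envelope genes, whose products are cross-linked under the corneocyte membrane, rose as a group: of 15 members tested, 12 rose, 0 fell and 3 did not pass the test (median log2 fold change 2.38). Over the 10 libraries, 11 members lay wholly above and 0 wholly below flanks. SERPINB12, a serpin of differentiated keratinocytes, had 1899 to 5991 CPM in soles and 78.9 to 165 CPM in flanks (log2 fold change 4.92 ± 0.33, adjusted p = 7.91e-06). Cross-linking enzymes rose with it, among them TGM5 (3.59 ± 0.33) and TGM3 (2.39 ± 0.24). TGM3 was at 2170, 1370, 1842, 3657 and 3328 CPM in soles. Flanks had 308, 279, 439.6, 300.3 and 253 CPM. Its second-set soles were both above those of the first set. CDSN, corneodesmosin, which holds corneocytes together, was at 2628, 2104, 2387, 9379 and 7424 CPM in soles. Flanks had 545, 344, 460.1, 787 and 425 CPM (log2 fold change 2.4 ± 0.23, adjusted p = 5.85e-05). CASP14, a caspase of cornification, was at 164, 345, 648, 995 and 622 CPM in soles. Flanks had 24.9, 17.9, 11.4, 19 and 7.42 CPM (log2 fold change 4.41 ± 0.59, adjusted p = 0.000367). CNFN, cornifelin, had 186 to 729 CPM in soles and 4.66 to 21.4 CPM in flanks (3.92 ± 0.42). IVL, involucrin, an envelope scaffold, was at 157, 1081, 816, 1600 and 815 CPM in soles. Flanks had 90.3, 69.4, 138, 199 and 129 CPM (log2 fold change 2.78 ± 0.59, adjusted p = 0.00494). Its 4-month sole lay within the range of the flanks, so the groups overlapped. Members that did not pass include KRTDAP (0.55 ± 0.25) and HAL (-0.99 ± 0.54).

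Desmosomes and other junctions link keratinocytes. In this list, of 25 members tested, 13 rose, 3 fell and 9 did not pass the test (median log2 fold change 0.80). The main desmosomal proteins rose: DSP, desmoplakin (2.03 ± 0.19), JUP, plakoglobin (2.03 ± 0.20), DSG1, desmoglein 1 (1.9 ± 0.22), PKP1, plakophilin 1 (1.86 ± 0.22) and PERP (1.76 ± 0.19). DSP was at 23313, 20593, 20602, 24797 and 27233 CPM in soles. Flanks had 5821, 4023, 5934, 4689 and 2936 CPM. The gap junction gene GJA1 rose as well, with 3659 to 6412 CPM in soles and 1123 to 2821 CPM in flanks (1.53 ± 0.24). Members that fell include the claudin CLDN23 (-3.01 ± 0.56) and DSG4, the desmoglein of the hair shaft. DSG4 was at 1.37, 0.428, 1.44, 2.79 and 4.18 CPM in soles. Flanks had 23.9, 68.2, 196, 322 and 127 CPM (log2 fold change -6.5 ± 0.94, adjusted p = 0.000635).

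Proteases of desquamation and their inhibitors mostly rose. In this list, of 25 members tested, 17 rose, 2 fell and 6 did not pass the test (median log2 fold change 2.03). Over the 10 libraries, 17 members lay wholly above and 1 wholly below flanks. A2ML1, a broad protease inhibitor of the granular layer, was at 2223, 656, 767, 1378 and 3241 CPM in soles. Flanks had 2.04, 0.987, 1.65, 2.34 and 1.39 CPM (log2 fold change 9.61 ± 0.68, adjusted p = 1.23e-05). Kallikreins, the serine proteases that cleave corneodesmosomes, included KLK14 (5.36 ± 0.66), KLK8 (4.88 ± 0.59), KLK7 (3.44 ± 0.48) and KLK5 (2.93 ± 0.48). KLK7 was at 1333, 567, 1282, 2658 and 3140 CPM in soles. Flanks had 144, 77.5, 72.1, 173 and 130.2 CPM. KLK14 spread widely among soles, at 203, 24.2, 105, 258 and 753 CPM, with the 8-month sole lowest and the 5-month sole highest. Inhibitors rose beside them, among them SERPINB5 (2.07 ± 0.24) and SERPINB7 (2.91 ± 0.34), the gene mutated in Nagashima-type palmoplantar keratoderma. SPINK9, an inhibitor known from human palmoplantar skin, was at 288, 156, 214, 709.7 and 914 CPM in soles. Flanks had 34.2, 7.0, 19.2, 7.84 and 13.4 CPM (log2 fold change 3.44 ± 0.57, adjusted p = 0.00124). SERPINB7 was at 1328, 721, 1500, 2492 and 3191 CPM in soles. Flanks had 227, 94.5, 151, 111 and 87.4 CPM. The 2 members that fell were TMPRSS4 (-3.6 ± 0.51) and the cathepsin inhibitor CSTB (log2 fold change -0.79 ± 0.28, adjusted p = 0.0475; call lost without the 8-month volar, 7-month volar, 4-month flank or 8-month flank library, adjusted p up to 0.169; call lost with limma-voom, adjusted p = 0.0572, with only the 6 libraries of both sites, adjusted p = 0.111 and with no count filter, adjusted p = 0.0528).

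Among enzymes of barrier lipids, of 25 members tested, 9 rose, 2 fell and 14 did not pass the test (median log2 fold change 0.42). The largest rise was that of ALOX12B, a lipoxygenase that oxidises acylceramides, with 80.9 to 391 CPM in soles and 14.5 to 49.2 CPM in flanks (log2 fold change 1.93 ± 0.42, adjusted p = 0.00588). ELOVL1, an elongase of very long fatty acids (1.21 ± 0.16), CYP4F22, the omega-hydroxylase of acylceramide synthesis (1.27 ± 0.33; call lost with only the 6 libraries of both sites, adjusted p = 0.0513), CERS3, its ceramide synthase (1.09 ± 0.29; call lost without the 7-month volar library, adjusted p = 0.0533; call lost with only the 6 libraries of both sites, adjusted p = 0.0683), and ABHD5 (0.84 ± 0.18) rose too. CERS3 was at 59.9, 73.5, 92.1, 150.1 and 119 CPM in soles. Flanks had 49.2, 18.4, 38.2, 28.5 and 20.9 CPM. Its highest flank lay just below its lowest sole. The 2 members that fell were the ceramide synthase CERS4 (-1.69 ± 0.28) and PNPLA3 (-6.72 ± 1.32; -11.14 without the 8-month volar library). The list median (0.54 as a difference of mean log2(CPM + 0.5) in the first set) was 0.02 on plain totals.

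Defence genes of keratinocytes gave some of the largest differences. In the alarmin and antimicrobial list, of 11 members tested, 4 rose, 3 fell and 4 did not pass the test (median log2 fold change -0.45). S100A8, a subunit of calprotectin, was at 3291, 2400, 3741, 9374 and 5264 CPM in soles. Flanks had 0.648, 2.64, 1.87, 2.66 and 7.56 CPM (log2 fold change 10.82 ± 1.07, adjusted p = 7.86e-05). S100A12, a related calcium-binding protein, was at 4395, 3919, 5250, 16783 and 8939 CPM in soles. Flanks had 2.29, 6.61, 5.04, 7.79 and 15 CPM (log2 fold change 9.92 ± 0.84, adjusted p = 3.33e-05). The lowest sole was 317 times the highest flank for S100A8 and 261 times for S100A12. IL18 (2.22 ± 0.41) and DEFB1 (1.22 ± 0.23) also rose. The 3 members that fell were LTF, lactoferrin (-5.05 ± 1.04; call lost with limma-voom, adjusted p = 0.0809), IL1A (-1.83 ± 0.44) and the nuclear alarmin IL33. IL33 was at 10.8, 16.4, 6.66, 9.87 and 10.9 CPM in soles. Flanks had 61.8, 57.2, 24.6, 42 and 36.6 CPM (log2 fold change -2.08 ± 0.38, adjusted p = 0.0022). Myeloid cells also make S100A8 and S100A12. The summed level of the macrophage list was 109 to 298 CPM in soles and 236 to 624 CPM in flanks, and the part of myeloid cells in the difference was not tested.

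**Figure D3:**
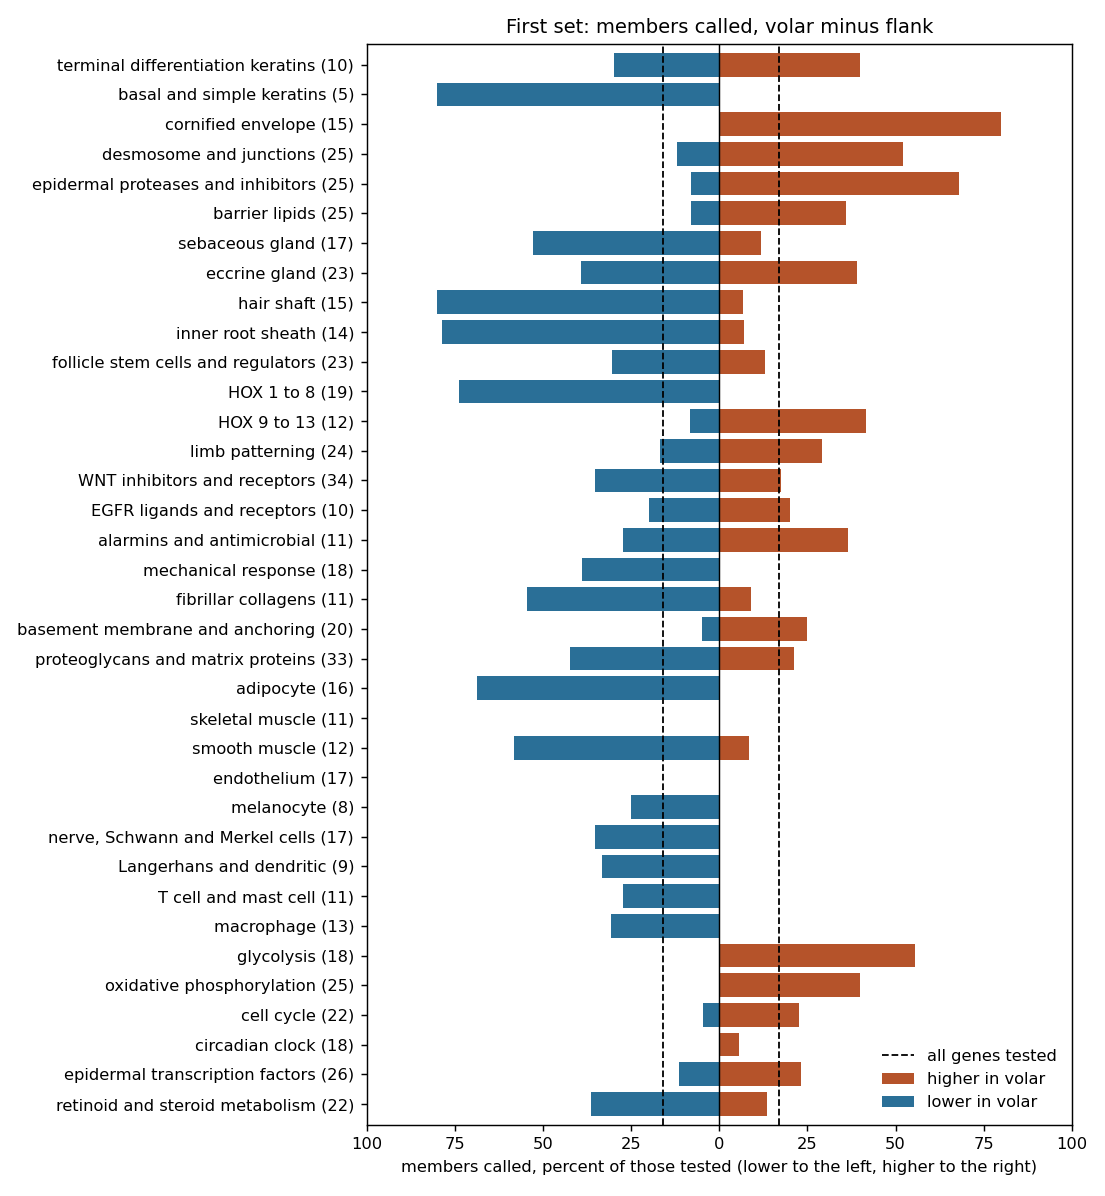
Percent of the tested members of each of the 36 gene lists that were called in the first set, higher in volar to the right and lower to the left, with the number tested in brackets; dashed lines are the shares of all genes tested (16.9% higher and 16.0% lower). Cornified envelope and protease lists stand at 80% and 68% higher, hair shaft, inner root sheath and HOX 1 to 8 lists at 73.7% to 80% lower, and no endothelial or skeletal muscle member was called.

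Most hair shaft genes were lower in soles, but the keratins KRT84 and KRT36 of that list overlapped between the groups. In both, the highest sole lay above every flank. The lowest flank was 0.00232 times the highest sole for KRT84 and 0.00627 times for KRT36. KRT84 ranged 622-fold among soles. For the hair shaft list, of 15 members tested, 1 rose, 12 fell and 2 did not pass the test (median log2 fold change -9.8), and the median was -9.73 with the 3 members that had no count in volar set at their bound of 3 counts over the group. KRT85, a keratin of the hair cortex, was at 0.0254, 0, 0.283, 0 and 0 CPM in soles. Flanks had 58.4, 149, 599.8, 808 and 229 CPM (log2 fold change -11.44 ± 1.41, adjusted p = 0.000261). KRTAP11-1, a keratin-associated protein of the cortex, was at 0.0254, 0, 0.18, 0.0913 and 0.174 CPM in soles. Flanks had 62.1, 219.7, 638, 1282 and 289 CPM (log2 fold change -12.21 ± 1.57, adjusted p = 0.000332). Both ranked with the genes of the widest gap over the 10 libraries. KRT35 (-11.21 ± 1.31), KRT82 (-9.8 ± 1.61; call lost with limma-voom, adjusted p = 0.164), HEPHL1 (-7.28 ± 0.74) and VSIG8 (-11.61 ± 1.34; call lost with limma-voom, adjusted p = 0.0638), a gene of the hair cuticle outside the list, fell likewise. KRT39 had no count in any sole-matched library and 11.6 to 76.8 CPM in flanks, at least 1091-fold lower in the first set. The member that rose was LYPD3, a membrane protein of suprabasal keratinocytes (log2 fold change 1.81 ± 0.27, adjusted p = 0.000623). The summed level of the list, LYPD3 included, was 448.9, 744.9, 802.1, 1001 and 1286 CPM in soles. Flanks had 425.9, 979.2, 2485, 3880 and 1531 CPM, so the sums overlapped.

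For the inner root sheath list, of 14 members tested, 1 rose, 11 fell and 2 did not pass the test (median log2 fold change -7.91), and the median was -7.74 with the 3 members without counts at their bound. KRT74 was at 0.38, 0.447, 0.54, 1.0 and 0.941 CPM in soles. Flanks had 28.6, 267, 745, 1723 and 544 CPM (log2 fold change -9.57 ± 1.26, adjusted p = 0.000359). KRT27 was at 3.35, 1.03, 2.42, 16.4 and 2.51 CPM in soles. Flanks had 74.5, 433, 905, 2528 and 893 CPM (log2 fold change -7.71 ± 1.03, adjusted p = 0.000398). TCHHL1, a trichohyalin-like gene, had no count in any sole-matched library and 8.5, 39.7, 124, 233 and 156 CPM in flanks, at least 2779-fold lower in the first set. Among flanks the 4-month pig was lowest for each of these, KRT71 included. GATA3, a transcription factor of the inner root sheath and of the interfollicular epidermis, fell less (-2.67 ± 0.41). The member that rose was CUX1 (log2 fold change 0.71 ± 0.21, adjusted p = 0.0244; call lost without the 4-month volar, 7-month volar, 4-month flank or 7-month flank library, adjusted p up to 0.0828; call lost with only the 6 libraries of both sites, adjusted p = 0.0586).

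Among follicle stem cell genes and regulators, of 23 members tested, 3 rose, 7 fell and 13 did not pass the test (median log2 fold change -1.0). The shares were 13% higher and 30.4% lower, against 16.9% and 16.0% of all genes tested. LGR5, a receptor of follicle stem cells, had no count in any sole-matched library and 9.84, 9.82, 12.7, 14.5 and 10.6 CPM in flanks, at least 472-fold lower in the first set (adjusted p = 2.55e-05). CD34 fell (-1.62 ± 0.29). DLX3, a homeobox gene of the hair matrix that also acts in the differentiating epidermis, rose (1.28 ± 0.26). It was at 25.4, 22.5, 26.8, 71 and 54.5 CPM in soles. Flanks had 10.2, 7.35, 13.2, 24.4 and 9.43 CPM. CRABP1, a retinoic acid binding protein, rose in the first set (log2 fold change 1.93 ± 0.47, adjusted p = 0.00986), but was lower in the second-set soles (20.4 and 22.9 CPM) than in the second-set flanks (24.0 and 75.0 CPM). WNT10B (log2 fold change 0.98 ± 0.32, adjusted p = 0.0361) rose too (call lost without the 4-month volar, 7-month volar or 8-month flank library, adjusted p up to 0.116; call lost with only the 6 libraries of both sites, adjusted p = 0.0721 and with upper-quartile scaling, adjusted p = 0.0505).

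Sebaceous gland genes mostly fell: of 17 members tested, 2 rose, 9 fell and 6 did not pass the test (median log2 fold change -1.16). MGST1 was at 8.52, 10.9, 4.55, 2.92 and 2.72 CPM in soles. Flanks had 21.7, 124, 37.1, 158 and 115 CPM (log2 fold change -2.94 ± 0.59, adjusted p = 0.00382; -1.90 without the 8-month flank library). PLIN2, a lipid droplet coat protein, fell (-1.16 ± 0.18), as did ELOVL3 (-5.96 ± 1.4; -10.51 without the 7-month volar library; call lost with limma-voom, adjusted p = 0.0872). AWAT2, a wax synthase of sebocytes, had no count in first-set volar and 0.225 to 0.278 CPM in first-set flank, at least 10.9-fold lower (call lost without the 8-month volar library, adjusted p = 0.0502). FAR2, a fatty acyl reductase, rose and was at 9.94, 9.36, 8.39, 3.2 and 5.16 CPM in soles. Flanks had 1.99, 3.13, 1.93, 1.61 and 1.95 CPM (log2 fold change 1.97 ± 0.37, adjusted p = 0.00241). The other member that rose was ACSBG1 (log2 fold change 1.37 ± 0.44, adjusted p = 0.034; call lost without the 8-month volar, 7-month volar, 8-month flank or 7-month flank library, adjusted p up to 0.123; adjusted p = 0.0572 with the pig as block). ELOVL6, a fatty acid elongase outside the list, had no count in any sole-matched library and 0.695, 194, 5.44, 15.9 and 59.6 CPM in flanks (adjusted p = 0.0244; call lost without the 4-month volar, 8-month volar, 7-month volar or 8-month flank library, adjusted p up to 0.0637; call lost with limma-voom, adjusted p = 0.237 and with only the 6 libraries of both sites, adjusted p = 0.063). An exact 0 in estimated counts can be a failed estimate, so only the listing at 0 is stated for it.

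The eccrine gland list did not move as one: of 23 members tested, 9 rose, 9 fell and 5 did not pass the test (median log2 fold change -0.67). The share was 39.1% in each direction, against 16.9% higher and 16.0% lower of all genes tested. AQP5, the water channel of sweat glands, was at 2133, 498, 1438, 4130 and 5371 CPM in soles. Flanks had 2.06, 7.12, 14.3, 27 and 12.9 CPM (log2 fold change 7.43 ± 0.86, adjusted p = 0.000182). The 8-month sole was the lowest of the soles and still 18.4 times the highest flank. RHCG, an ammonium transporter, was at 564, 330.3, 639, 790.2 and 713 CPM in soles. Flanks had 5.81, 3.28, 5.41, 10.3 and 3.59 CPM (log2 fold change 6.72 ± 0.33, adjusted p = 6.81e-06). The epithelial sodium channel subunit SCNN1A (2.31 ± 0.31) and the carbonic anhydrase CA2 (2.83 ± 0.34) rose too, and both are also made by other epithelia. The 9 members that fell include the chloride channel CFTR (-3.8 ± 0.68), the sodium pump subunit ATP1B1 (-1.36 ± 0.38; call lost without the 7-month volar library, adjusted p = 0.0636 and without the 4-month volar library, adjusted p = 0.0507) and the calcium-activated channel ANO1 (-0.94 ± 0.22). EDAR (-1.49 ± 0.35; call lost with only the 6 libraries of both sites, adjusted p = 0.0524) and TRPV4 (-1.38 ± 0.31) fell as well. FOXA1, a regulator of sweat secretion in mice, had 1 count in first-set volar and stood at 0.116, 8.2, 8.27, 16.6 and 17 CPM in flanks, with 0 to 0.0195 CPM in the sole-matched ones (adjusted p = 0.00936; call lost with limma-voom, adjusted p = 0.161). ATP6V1B1, a proton pump subunit, had 3 counts in first-set volar and 1.25 to 2.94 CPM in flanks (adjusted p = 0.00241; call lost with limma-voom, adjusted p = 0.0851). STAC2 (log2 fold change -1.32 ± 0.41, adjusted p = 0.0303; call lost without the 4-month volar, 8-month volar, 8-month flank or 7-month flank library, adjusted p up to 0.101; call lost with limma-voom, adjusted p = 0.0581 and with only the 6 libraries of both sites, adjusted p = 0.103) and SLC26A4 (log2 fold change -3.52 ± 1.18, adjusted p = 0.0421; call lost without the 4-month volar, 8-month volar, 7-month volar, 8-month flank or 7-month flank library, adjusted p up to 0.142; adjusted p = 0.0667 with the pig as block; call lost with limma-voom, adjusted p = 0.247 and with no count filter, adjusted p = 0.0548) also fell.

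SCGB1D1, a secretoglobin, stood at 0.0507, 0.0584, 0.206, 0.137 and 0.279 CPM in soles. Flanks had 0.278, 82.9, 95.5, 212 and 63.1 CPM (log2 fold change -9.17 ± 2.57, adjusted p = 0.0198; call lost without the 4-month volar, 8-month volar or 7-month volar library, adjusted p up to 0.0683; call lost with limma-voom, adjusted p = 0.542). PHEROC, another gene with a wide range among flanks, had 3 counts in first-set volar and 0.602, 29.9, 155, 117 and 51.6 CPM in flanks (adjusted p = 0.0185; call lost without the 4-month volar, 8-month volar or 7-month volar library, adjusted p up to 0.0654; call lost with limma-voom, adjusted p = 0.6). CPHL1, a ceruloplasmin-like gene, had 2 counts in first-set volar and 30.4, 1671, 824, 2265 and 454 CPM in flanks (adjusted p = 0.000422; call lost with limma-voom, adjusted p = 0.124). In all 3 genes the 4-month flank was the lowest of the 5.

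HOX genes were grouped by paralog number. Among paralogs 1 to 8, which mark trunk levels, of 19 members tested, 0 rose, 14 fell and 5 did not pass the test (median log2 fold change -1.67). Over the 10 libraries, 0 members lay wholly above and 14 wholly below flanks. Their summed level was 39.9, 29.4, 31.5, 24.3 and 33.5 CPM in soles, against 103, 96.3, 95.4, 94 and 99.6 CPM in flanks. HOXC5 was at 0.127, 0.311, 0.54, 0.228 and 0.418 CPM in soles. Flanks had 4.63, 3.72, 5.07, 2.63 and 4.06 CPM (log2 fold change -3.77 ± 0.50, adjusted p = 0.000342). HOXC6 (-2.65 ± 0.38) fell as well, and HOXA2 had 2 counts in first-set volar and 0.493 to 0.741 CPM in flanks (adjusted p = 0.000846).

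Among paralogs 9 to 13, which mark successive limb segments, of 12 members tested, 5 rose, 1 fell and 6 did not pass the test (median log2 fold change 1.61). Over the 10 libraries, 3 members lay wholly above and 1 wholly below flanks, and the other 8 overlapped. HOXC11 was at 5.86, 4.1, 3.11, 5.34 and 3.63 CPM in soles. Flanks had 0.0926, 0.139, 0.135, 0.104 and 0.281 CPM (log2 fold change 5.11 ± 0.38, adjusted p = 4.55e-05). HOXC12 (3.34 ± 0.63) and HOXC10 (1.47 ± 0.42; call lost without the 4-month volar, 7-month volar, 4-month flank or 7-month flank library, adjusted p up to 0.0794; call lost with only the 6 libraries of both sites, adjusted p = 0.0633) rose with it. All 3 of these HOXC genes had every sole above every flank. HOXA11 was at 5.27, 2.37, 1.34, 0.731 and 0.593 CPM in soles. Flanks had 0.0926, 0.678, 0.0899, 0.417 and 0.194 CPM (log2 fold change 3.34 ± 0.75, adjusted p = 0.00655), and the 5-month sole lay below the highest flank. HOXD12 had no count in first-set flank and at most 0.253 CPM in a sole (call lost without the 4-month volar, 8-month volar, 4-month flank, 8-month flank or 7-month flank library, adjusted p up to 0.101; adjusted p = 0.075 with the pig as block). HOXC9, the member that fell, was at 1.52, 1.61, 1.72, 1.1 and 0.802 CPM in soles. Flanks had 4.45, 4.83, 4.57, 5.21 and 6.83 CPM (log2 fold change -1.51 ± 0.24, adjusted p = 0.00181). HOXA9 was at 34.2, 1.89, 24, 1.28 and 24.3 CPM in soles. Flanks had 4.89, 7.39, 4.68, 3.18 and 1.07 CPM. It did not pass the test (log2 fold change 1.82 ± 0.98, adjusted p = 0.191). HOXA13 and HOXD13 matched no gene identifier in the supplied names and are not analysed here.

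**Figure D4:**
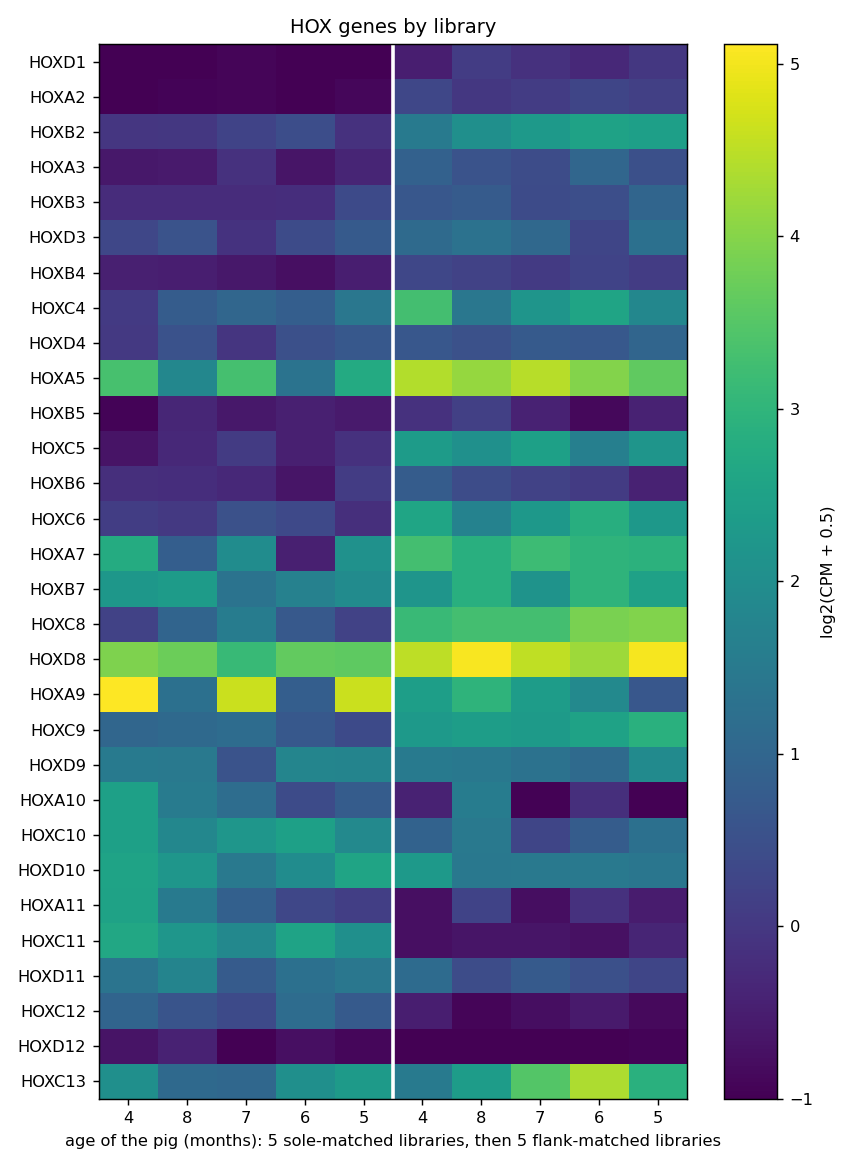
Level of the HOX genes shown, as log2(CPM + 0.5), with 1 column per library (sole-matched left of the white line, flank-matched right of it, pigs aged 4, 8, 7, 6 and 5 months in each) and rows by paralog number. HOXC8 and the rows above it are mostly darker in soles, HOXC11 and HOXC12 are darker in flanks, and HOXA9 is bright in the soles of the 4-, 7- and 5-month pigs only.

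Limb patterning genes other than HOX gave 7 members higher and 4 lower of 24 tested (median log2 fold change -0.02). These were 29.2% and 16.7% of the members, against 16.9% and 16.0% of all genes tested, so the share that fell was near that of all genes. SP8, a zinc finger factor of the limb's apical ectoderm, was at 8.29, 4.77, 5.74, 11 and 11 CPM in soles. Flanks had 0, 0, 0, 0.0521 and 0 CPM. It was at least 357-fold higher in first-set volar than in first-set flank, which had no count (adjusted p = 0.000167). The paired homeobox genes DLX5 (3.14 ± 0.35) and DLX6 (3.32 ± 0.35) rose, DLX5 at 12.1, 12.1, 14.1, 22.7 and 26.9 CPM in soles. Flanks had 1.6, 1.06, 1.68, 1.61 and 1.02 CPM. MSX1 (1.66 ± 0.27), TBX3 (1.48 ± 0.25) and EN1 rose too. The 4 members that fell were the BMP antagonist GREM1 (-1.87 ± 0.23), SHOX2 (-1.21 ± 0.36; call lost without the 7-month volar library, adjusted p = 0.0543 and without the 8-month flank library, adjusted p = 0.0786; call lost with only the 6 libraries of both sites, adjusted p = 0.0668), FGF10 (-1.79 ± 0.53; call lost without the 8-month volar, 7-month volar or 8-month flank library, adjusted p up to 0.106; call lost with only the 6 libraries of both sites, adjusted p = 0.0833) and PAX3 (-3.42 ± 0.95; call lost without the 4-month volar, 7-month volar or 8-month flank library, adjusted p up to 0.0668; call lost with limma-voom, adjusted p = 0.0619). LMX1B, which specifies the upper side of the limb, was at 1.5, 1.09, 1.67, 2.74 and 2.37 CPM in soles. Flanks had 1.27, 2.96, 2.29, 3.85 and 4.24 CPM. It did not pass the test (adjusted p = 0.108). The list median over the 10 libraries was 0.33 on the TMM scale and -0.15 on plain totals.

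WNT pathway genes had 6 members higher and 12 lower of 34 tested (median log2 fold change -0.38). These were 17.6% and 35.3% of the members, against 16.9% and 16.0% of all genes tested, so the share that rose was near that of all genes. WNT16, a WNT ligand, was at 3.35, 3.0, 4.5, 1.32 and 2.13 CPM in soles. Flanks had 77.6, 43.8, 57.7, 33.2 and 26.4 CPM (log2 fold change -4.05 ± 0.26, adjusted p = 7.91e-06). Of the ligands, WNT5A (0.88 ± 0.15), WNT10A (1.43 ± 0.29) and WNT10B rose. WNT10A, mutated in a human disorder with palmoplantar keratoderma, was at 10.2, 10.1, 7.23, 7.76 and 7.74 CPM in soles. Flanks had 3.59, 2.16, 4.44, 2.76 and 2.41 CPM. DKK1, the secreted WNT inhibitor known from fibroblasts of human soles, was near zero everywhere, at 0.101, 0.37, 0.566, 0.137 and 0.105 CPM in soles. Flanks had 0.139, 0.154, 0.225, 0.104 and 0.088 CPM (log2 fold change 0.98 ± 0.62, adjusted p = 0.249). DKK3 rose (1.65 ± 0.21), at 113, 133, 86.9, 87.9 and 111 CPM in soles. Flanks had 28.6, 33.9, 43.2, 35.3 and 38.7 CPM. KREMEN1, a DKK receptor, rose by little (0.47 ± 0.11; call lost with only the 6 libraries of both sites, adjusted p = 0.0512), and its difference was -0.06 on plain totals. TCF7 rose too (log2 fold change 1.15 ± 0.39, adjusted p = 0.0426; call lost without the 4-month volar, 7-month volar, 4-month flank or 8-month flank library, adjusted p up to 0.129; adjusted p = 0.0519 with the pig as block; call lost with limma-voom, adjusted p = 0.0743, with only the 6 libraries of both sites, adjusted p = 0.0779 and with upper-quartile scaling, adjusted p = 0.0606).

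EGF family genes had 2 members higher and 2 lower of 10 (20% each, against 16.9% higher and 16.0% lower of all genes tested), and a list median (0.25 as a difference of mean log2(CPM + 0.5) in the first set) that was -0.27 on plain totals. EREG, epiregulin, a ligand of the EGF receptor, was at 393, 699, 752, 1556 and 824 CPM in soles. Flanks had 44.7, 20.6, 60.5, 35.2 and 21.8 CPM (log2 fold change 3.87 ± 0.47, adjusted p = 0.000211). BTC, betacellulin, another ligand, was at 0.406, 0.447, 0.772, 0.868 and 0.244 CPM in soles. Flanks had 55.5, 22.2, 25.7, 20.6 and 11.7 CPM (log2 fold change -6.0 ± 0.78, adjusted p = 0.000329). LRIG1, a negative regulator of the receptor and a marker of follicle stem cells, fell (log2 fold change -2.99 ± 0.30, adjusted p = 7.63e-05). EGFR itself was at 219.6, 180.3, 249, 204 and 210.5 CPM in soles. Flanks had 177, 113, 158, 139 and 111 CPM (log2 fold change 0.53 ± 0.19, adjusted p = 0.0491; call lost without the 4-month volar, 7-month volar, 8-month flank or 7-month flank library, adjusted p up to 0.162; call lost with only the 6 libraries of both sites, adjusted p = 0.12, with upper-quartile scaling, adjusted p = 0.0895, with no count filter, adjusted p = 0.0538, with a filter of 1 CPM in 3 libraries, adjusted p = 0.0523 and with the 20 most abundant genes left out, adjusted p = 0.0518).

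Among transcription factors of the epidermis, of 26 members tested, 6 rose, 3 fell and 17 did not pass the test (median log2 fold change 0.36). Of the members 23.1% rose and 11.5% fell, against 16.9% and 16.0% of all genes tested. Their median difference of mean log2(CPM + 0.5) in the first set was 0.42, and -0.12 on plain totals. ZBED2, a factor of human basal keratinocytes, was at 99.3, 118, 108, 90.6 and 118 CPM in soles. Flanks had 0.556, 0.74, 1.27, 1.09 and 0.739 CPM (log2 fold change 6.96 ± 0.46, adjusted p = 7.91e-06). PRDM1, BLIMP1, which acts in terminal differentiation, was at 750.1, 469, 811, 985 and 968 CPM in soles. Flanks had 102, 55, 77.5, 92.2 and 55.7 CPM (log2 fold change 3.11 ± 0.28, adjusted p = 4.27e-05). TFAP2C rose (1.75 ± 0.25). GATA3, EHF (-1.94 ± 0.32) and ELF5 (-2.3 ± 0.45) fell. EHF was at 9.91, 16.9, 11.8, 30.3 and 5.51 CPM in soles. Flanks had 75.9, 33.1, 39, 46.9 and 46.2 CPM.

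Many genes of the dermal matrix fell, and some rose, among them THBS4 and COMP. In bulk skin, fewer cells of a type and less RNA per cell cannot be told apart, for this and every other gene group here. Among the fibrillar collagens, of 11 members tested, 1 rose, 6 fell and 4 did not pass the test (median log2 fold change -1.33). Their summed level was 37750, 18570, 12720, 6033 and 7843 CPM in soles, against 130100, 147400, 98310, 108200 and 225000 CPM in flanks. COL1A1 was at 4736, 2555, 2104, 734 and 997 CPM in soles. Flanks had 21381, 25437, 14121, 19754 and 39364 CPM (log2 fold change -2.7 ± 0.51, adjusted p = 0.00263). COL1A2 had 1586 to 10178 CPM in soles and 34473 to 87231 CPM in flanks (-2.91 ± 0.51), and COL3A1 had 3228 to 21132 CPM in soles and 45036 to 93841 CPM in flanks (-2.17 ± 0.44). Among soles the 4-month pig was highest and the second-set pigs lowest for all 3. COL2A1, the collagen of cartilage, was the member that rose (log2 fold change 4.66 ± 1.11, adjusted p = 0.00901; call lost with limma-voom, adjusted p = 0.0957). It reached 3.25 and 4.58 CPM in the 4- and 7-month soles and at most 0.194 CPM in the other 3 soles, against at most 0.417 CPM in flanks. In both second-set pigs it was lower in the sole than in the flank, with differences of -0.87 and -0.05 on log2(CPM + 0.5).

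Among proteoglycans and other matrix proteins, of 33 members tested, 7 rose, 14 fell and 12 did not pass the test (median log2 fold change -0.97). POSTN, periostin, was at 537, 562, 465, 149 and 257 CPM in soles. Flanks had 5554, 4962, 4709, 5712 and 11012 CPM (log2 fold change -3.29 ± 0.18, adjusted p = 6.81e-06). DCN, decorin (-2.27 ± 0.32), LUM, lumican (-1.63 ± 0.27), and OMD, osteomodulin (-3.43 ± 0.44), fell with it. THBS4, a thrombospondin of tendon, ran the other way, at 2565, 1402, 1016, 717 and 1541 CPM in soles. Flanks had 12.9, 7.12, 6.4, 12.3 and 11.4 CPM (log2 fold change 7.56 ± 0.63, adjusted p = 2.87e-05). COMP, cartilage oligomeric matrix protein, was at 265, 30.5, 58.5, 3.29 and 89.8 CPM in soles. Flanks had 0.185, 0.401, 0.24, 0.599 and 0.317 CPM (log2 fold change 8.7 ± 0.91, adjusted p = 0.000108). The 4-month sole had 80.5 times the level of the 6-month sole. TNC, tenascin C, rose (log2 fold change 1.62 ± 0.39, adjusted p = 0.00934), with the 6-month sole at the level of the flanks (109 CPM, against 60.8 to 121.9 CPM).

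4 other matrix genes that rose in the first set were not higher in the second. CILP, a cartilage protein, was at 267, 214, 62.3, 8.54 and 10.6 CPM in soles. Flanks had 48.1, 24.1, 29.6, 45.9 and 52.2 CPM (log2 fold change 2.41 ± 0.53, adjusted p = 0.00604). It was lower in both second-set soles than in both second-set flanks. CILP2 was at 50.3, 0.798, 0.36, 0.0457 and 0.0697 CPM in soles and at most 0.463 CPM in flanks (log2 fold change 6.03 ± 1.64, adjusted p = 0.0176; call lost without the 4-month volar, 8-month flank or 7-month flank library, adjusted p up to 0.168; call lost with limma-voom, adjusted p = 0.22 and with only the 6 libraries of both sites, adjusted p = 0.0686). FMOD, fibromodulin, was at 205, 84.7, 62.7, 35.3 and 70.2 CPM in soles. Flanks had 23.1, 68.1, 32.3, 74.3 and 96.3 CPM (log2 fold change 1.51 ± 0.45, adjusted p = 0.0246; call lost without the 4-month volar, 4-month flank or 7-month flank library, adjusted p up to 0.113; call lost with only the 6 libraries of both sites, adjusted p = 0.0953). BGN, biglycan, was at 26.8 to 158 CPM in soles and 20.4 to 68.2 CPM in flanks (log2 fold change 1.35 ± 0.41, adjusted p = 0.0284; call lost without the 4-month volar library, adjusted p = 0.125 and without the 7-month flank library, adjusted p = 0.0807; call lost with only the 6 libraries of both sites, adjusted p = 0.0769). Of the 5 tendon markers examined, which include THBS4 and COMP, the summed level was 727.2 to 2839 CPM in soles and 11.7 to 23.9 CPM in flanks. Of the other members, TNMD and SCX were under 1 CPM in all 10 libraries, and MKX had 5.25 to 7.61 CPM in soles and 3.81 to 9.87 CPM in flanks. The 4 cartilage markers ACAN, COL2A1, COL9A1 and SOX9 summed to 5.53 to 32.5 CPM in soles and 35.4 to 70.1 CPM in flanks. SOX9, a cartilage and hair follicle regulator, fell (log2 fold change -1.82 ± 0.38, adjusted p = 0.00451). The part of tendon or cartilage in these differences was not tested.

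Among basement membrane and anchoring genes, of 20 members tested, 5 rose, 1 fell and 14 did not pass the test (median log2 fold change 0.22). Of the members 25% rose and 5% fell, against 16.9% and 16.0% of all genes tested. The median difference of the list was 0.23 in the first set and -0.30 on plain totals. ITGB4 (1.61 ± 0.20), COL17A1 (1.41 ± 0.23) and ITGA3 (0.86 ± 0.14), which anchor basal keratinocytes, rose, COL17A1 at 2513, 3234, 2435, 2888 and 2242 CPM in soles. Flanks had 1177, 723, 1178, 788 and 662 CPM. FREM2, a protein below the lamina densa, fell (-2.78 ± 0.32).

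Fat cell genes mostly fell: of 16 members tested, 0 rose, 11 fell and 5 did not pass the test (median log2 fold change -3.91). Their summed level was 197, 364, 296, 528 and 457 CPM in soles, against 615, 4508, 726, 1139 and 2778 CPM in flanks. ADIPOQ, adiponectin, was at 3.4, 15.7, 2.57, 2.56 and 3.0 CPM in soles. Flanks had 44, 1324, 117, 339.8 and 741 CPM (log2 fold change -6.1 ± 1.38, adjusted p = 0.00728; -3.51 without the 8-month flank library). LPL, lipoprotein lipase (-4.92 ± 0.80), LIPE (-4.12 ± 0.80; -2.47 without the 8-month flank library) and LEP, leptin (-4.81 ± 1.09; -2.51 without the 8-month flank library; call lost with limma-voom, adjusted p = 0.0605), fell as well. The flanks differed widely, with the 8-month flank 7.33 times the 4-month flank in the sum. How deep each biopsy reached is not given in the labels, and its part in these results was not tested.

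Smooth muscle genes mostly fell as well: of 12 members tested, 1 rose, 7 fell and 4 did not pass the test (median log2 fold change -1.54). MYH11, smooth muscle myosin of vessels and hair-raising muscles, was at 38.1, 92.2, 19.8, 9.32 and 13.3 CPM in soles. Flanks had 254, 742, 164, 440.1 and 386 CPM (log2 fold change -2.95 ± 0.63, adjusted p = 0.00531). MYLK (-1.53 ± 0.37; -0.97 without the 8-month flank library; call lost with only the 6 libraries of both sites, adjusted p = 0.0512) and TAGLN (-1.18 ± 0.28) fell too, while SMTN, smoothelin, rose (log2 fold change 1.75 ± 0.25, adjusted p = 0.000482). Of 11 skeletal muscle genes tested none was called by edgeR, with 0 at an unadjusted p under 0.05, 1 called by DESeq2 and 0 by limma-voom. Their sum was 9.09 to 20.6 CPM in soles and 42.4 to 165 CPM in flanks. None of the 17 endothelial genes was called by edgeR, with 2 at an unadjusted p under 0.05 and 1 called by each of DESeq2 and limma-voom, and their sum was 499.8 to 819 CPM in soles and 502 to 861 CPM in flanks; the list median difference was 0.08 in the first set, -0.01 with upper-quartile scaling and -0.45 on plain totals.

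**Figure D5:**
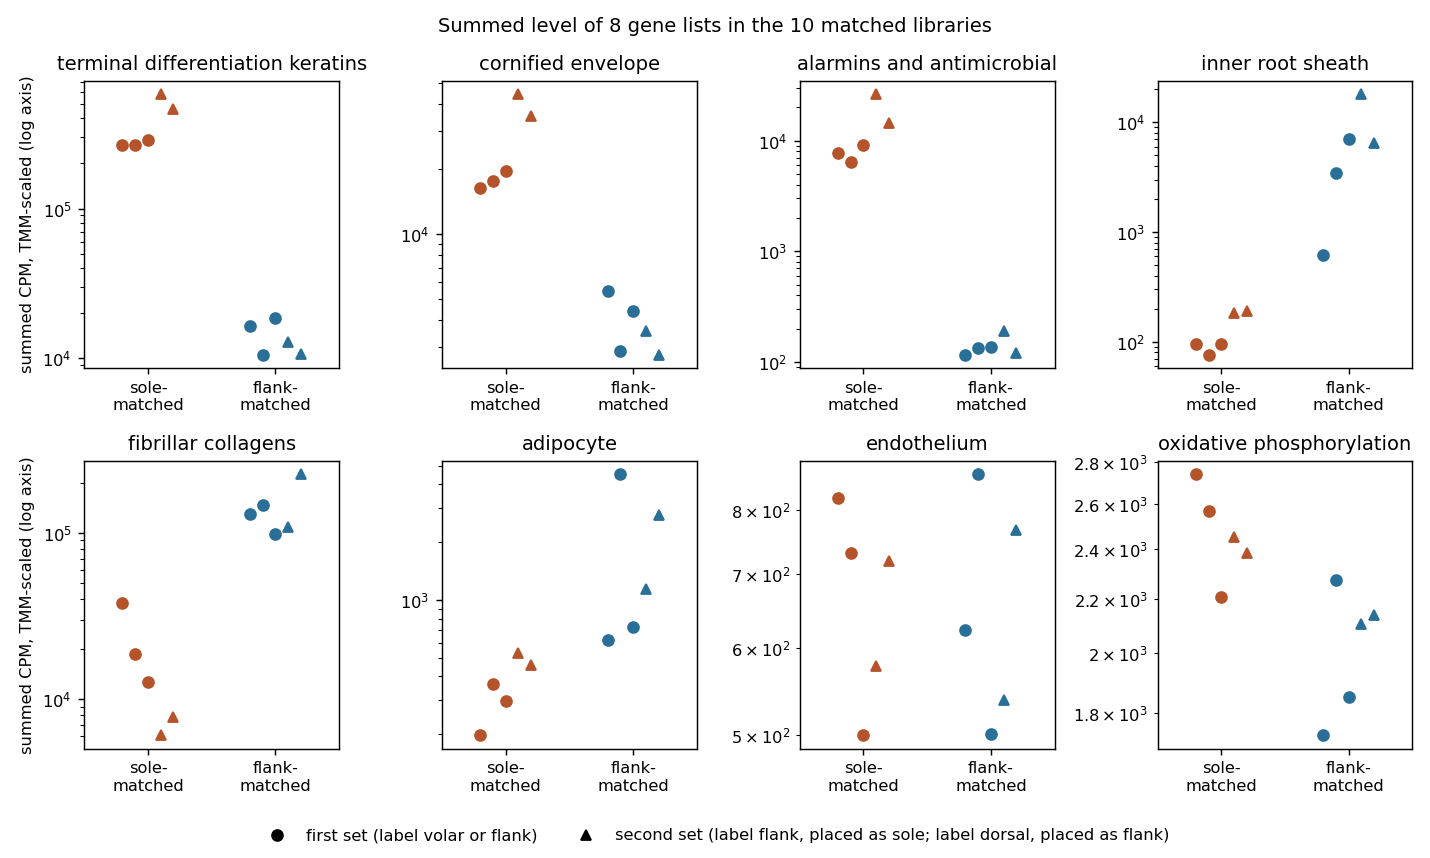
Summed level of 8 gene lists in each of the 10 libraries, in TMM-scaled CPM on log axes; circles are the first set and triangles the second. Soles are above flanks in every library for keratins, cornified envelope and alarmins and below in every library for inner root sheath, fibrillar collagens and adipocyte genes, while endothelial and oxidative phosphorylation sums overlap.

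Mechanical response genes, targets of YAP and of serum response factor with mechanosensitive channels, fell or did not pass the test: of 18 members tested, 0 rose, 7 fell and 11 did not pass the test (median log2 fold change -0.52). CCN1, a YAP target, was at 13.7, 11.4, 5.58, 4.07 and 10.0 CPM in soles. Flanks had 78.1, 68.4, 18.2, 16.3 and 20.5 CPM (log2 fold change -2.43 ± 0.65, adjusted p = 0.0162; call lost without the 7-month volar library, adjusted p = 0.0613). LATS2 (-0.82 ± 0.19), TAGLN, MYL9 (-1.61 ± 0.52; call lost without the 4-month volar, 7-month volar or 8-month flank library, adjusted p up to 0.161; call lost with limma-voom, adjusted p = 0.0741 and with only the 6 libraries of both sites, adjusted p = 0.109), TRPV4 and the touch channel PIEZO2 (-1.41 ± 0.34) fell. AMOTL2, a YAP target, fell in the first set (log2 fold change -1.22 ± 0.28, adjusted p = 0.00729) but was at 211.6 and 182 CPM in the second-set soles, against 109.5 and 115 CPM in the second-set flanks.

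No tested pigment, nerve or immune cell gene of these lists rose, and 25% to 35.3% of the members of each list fell, against 16.0% of all genes tested. For melanocyte genes, of 8 members tested, 0 rose, 2 fell and 6 did not pass the test (median log2 fold change -0.83). MITF, their master regulator, was at 24.5, 22.1, 22.6, 47.5 and 48 CPM in soles. Flanks had 68.5, 57.6, 50.1, 72.8 and 65 CPM (log2 fold change -1.35 ± 0.14, adjusted p = 8.61e-05). DCT, a pigment enzyme, fell (-1.87 ± 0.42). TYR, MLANA and MC1R of this list were too low to test in either group, at 0 to 0.0457 CPM in the 10 libraries. For nerve, Schwann and Merkel cells, of 17 members tested, 0 rose, 6 fell and 11 did not pass the test (median log2 fold change -1.04). PMP22, a myelin protein, fell (log2 fold change -1.3 ± 0.24, adjusted p = 0.00225), as did CHGA (-3.32 ± 1.04; call lost without the 8-month volar, 7-month volar or 8-month flank library, adjusted p up to 0.267; adjusted p = 0.0655 with the pig as block; call lost with limma-voom, adjusted p = 0.114 and with only the 6 libraries of both sites, adjusted p = 0.0931). 

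For Langerhans and dendritic cells, of 9 members tested, 0 rose, 3 fell and 6 did not pass the test (median log2 fold change -0.65). Those that fell were FCER1A (-1.53 ± 0.40; call lost without the 7-month volar library, adjusted p = 0.0517; call lost with only the 6 libraries of both sites, adjusted p = 0.0537), CD86 (-0.65 ± 0.18; call lost without the 8-month flank library, adjusted p = 0.0505; call lost with only the 6 libraries of both sites, adjusted p = 0.0561) and FLT3 (-1.51 ± 0.51; call lost without the 4-month volar, 7-month volar, 4-month flank, 8-month flank or 7-month flank library, adjusted p up to 0.131; call lost with only the 6 libraries of both sites, adjusted p = 0.0754). For T and mast cells, of 11 members tested, 0 rose, 3 fell and 8 did not pass the test (median log2 fold change -1.23). MS4A2, the mast cell receptor chain, was at 21.3, 29, 8.9, 6.67 and 6.03 CPM in soles. Flanks had 61.3, 73.2, 53.2, 49.3 and 73.1 CPM (log2 fold change -1.67 ± 0.35, adjusted p = 0.00457). T cell genes CD247 (-2.2 ± 0.53; -1.36 without the 8-month flank library) and CD3D (-1.14 ± 0.33; call lost without the 4-month volar library, adjusted p = 0.0746 and without the 8-month flank library, adjusted p = 0.0665) fell with it. For macrophages, of 13 members tested, 0 rose, 4 fell and 9 did not pass the test (median log2 fold change -0.62). CD14 was at 9.71, 8.5, 6.71, 4.75 and 5.33 CPM in soles. Flanks had 12.6, 25.9, 16, 14.8 and 21.1 CPM (log2 fold change -1.13 ± 0.27, adjusted p = 0.009). TYROBP fell (-1.21 ± 0.29; call lost with only the 6 libraries of both sites, adjusted p = 0.0541), as did MRC1 (-1.27 ± 0.43; call lost without the 8-month volar, 7-month volar or 8-month flank library, adjusted p up to 0.16; call lost with only the 6 libraries of both sites, adjusted p = 0.0896) and LYZ (-3.05 ± 1.0; call lost without the 8-month volar, 7-month volar, 4-month flank or 8-month flank library, adjusted p up to 0.114; call lost with only the 6 libraries of both sites, adjusted p = 0.0958).

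Glycolytic enzymes rose or did not pass the test: of 18 members tested, 10 rose, 0 fell and 8 did not pass the test (median log2 fold change 0.74), and the list median stayed above 0 on plain totals (0.21). The share that rose was 55.6%, against 16.9% of all genes tested. Over the 10 libraries, 10 members lay wholly above and 1 wholly below flanks. HK1, hexokinase 1, was at 407, 369.9, 317, 368 and 393 CPM in soles. Flanks had 130.1, 152, 109, 105 and 119 CPM (log2 fold change 1.48 ± 0.15, adjusted p = 8.74e-05). PKM (1.01 ± 0.12), PGAM1 (0.81 ± 0.11), GAPDH (1.44 ± 0.26) and LDHA (1.38 ± 0.21), which makes lactate, rose as well. LDHA was at 626, 433, 478, 413 and 538 CPM in soles. Flanks had 229, 180.1, 181, 185 and 179.8 CPM. LDHB was listed at or near 0 in all 10 libraries and was not tested. Among subunits of the respiratory chain, of 25 members tested, 10 rose, 0 fell and 15 did not pass the test (median log2 fold change 0.39), and the median difference of the list in the first set (0.38) was -0.14 on plain totals. Over the 10 libraries, 8 members lay wholly above and 2 wholly below flanks. NDUFB8 (0.80 ± 0.16), COX5B (0.76 ± 0.16) and NDUFV2 (0.55 ± 0.10) rose, and COX6A1 (0.51 ± 0.13; call lost with only the 6 libraries of both sites, adjusted p = 0.0525) had a difference of -0.01 on plain totals.

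Cell cycle genes mostly did not pass the test: of 22 members tested, 5 rose, 1 fell and 16 did not pass the test (median log2 fold change 0.20), with a median difference of 0.21 in the first set and -0.29 on plain totals. The shares were 22.7% higher and 4.55% lower, against 16.9% and 16.0% of all genes tested. CDKN1A, a cell cycle inhibitor, was at 48.2, 26.2, 44.4, 52.3 and 49.7 CPM in soles. Flanks had 14.4, 13.8, 11.4, 21.9 and 9.8 CPM (log2 fold change 1.58 ± 0.24, adjusted p = 0.000703). A related inhibitor, CDKN2B (1.46 ± 0.33), rose, as did CCNE1 (1.17 ± 0.26). CCND1, cyclin D1, was the member that fell (-0.65 ± 0.16). CCND2, cyclin D2, had no count in the 3 first-set flanks but 4.40 and 4.42 CPM in the second-set flanks, and no count in the 6-month sole, so only the listing at 0 is stated for it (call lost without any one of the 6 libraries, adjusted p up to 0.0772). Among circadian clock genes, of 18 members tested, 1 rose, 0 fell and 17 did not pass the test (median log2 fold change -0.05). Their median difference over the 10 libraries was 0.18 on the TMM scale and -0.48 on plain totals. The member that rose was NPAS2, at 28.2, 26, 59.8, 44.1 and 47.3 CPM in soles. Flanks had 11.7, 8.62, 11.1, 8.52 and 9.62 CPM (log2 fold change 1.86 ± 0.28, adjusted p = 0.000781).

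Retinoid and steroid enzymes fell more often than they rose: of 22 members tested, 3 rose, 8 fell and 11 did not pass the test (median log2 fold change -0.39). The shares were 13.6% higher and 36.4% lower, against 16.9% and 16.0% of all genes tested. HSD11B1, which activates glucocorticoids, was at 6.21, 6.6, 3.47, 2.97 and 0 CPM in soles. Flanks had 45.2, 34.5, 29.1, 81.1 and 42.6 CPM (log2 fold change -2.74 ± 0.36, adjusted p = 0.000338). The retinaldehyde dehydrogenases ALDH1A1 (-3.56 ± 0.76) and ALDH1A3 (-2.1 ± 0.44) fell, while their relative ALDH1A2 rose (2.49 ± 0.50), at 8.95, 10.6, 5.14, 3.65 and 7.88 CPM in soles. Flanks had 0.81, 2.7, 0.869, 1.93 and 1.48 CPM. RDH12 (1.18 ± 0.27) and CRABP1 were the other members that rose.

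Over the 10 libraries the widest gaps between the groups, measured on log2(CPM + 0.5) between the lowest library of the higher group and the highest of the lower, are given as a description. Higher in soles, they were those of S100A8 (8.22), S100A12 (7.98), KRT78 (7.96), A2ML1 (7.85), KRT3 (7.10) and LYPD2 (6.05), with THBS4, ZBED2, RHCG, DACT2, ARG1 and C8orf74 next at 4.44 to 5.74. LYPD2, of the Ly6 family, was at 363, 317, 392, 828 and 806 CPM in soles. Flanks had 4.28, 2.76, 2.16, 3.62 and 3.45 CPM. DACT2, a WNT pathway regulator, was at 110.3, 59.2, 97.6, 126 and 76.3 CPM in soles. Flanks had 1.46, 1.45, 1.81, 1.82 and 1.25 CPM. ARG1, arginase 1, was at 74.1, 91.2, 69.9, 58.5 and 247 CPM in soles. Flanks had 0.37, 0.941, 0.525, 1.82 and 0.44 CPM. Its 5-month sole was the highest.

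Lower in soles, the widest gaps were those of KRTAP11-1 (-6.53), KRT85 (-6.23), CPHL1 (-5.84), KRT35 (-4.95), KRT39 (-4.60) and LGR5 (-4.37), with FIBCD1, KRT74, VSIG8, GPRC5D, CLDN8 and TCHHL1 next at -4.35 to -4.17. FIBCD1, a chitin-binding receptor, had no count in any sole and 9.68 to 18.3 CPM in flanks. CLDN8, a claudin of tight junctions, stood at 0 to 0.0195 CPM in soles and 8.96 to 19.5 CPM in flanks. GPRC5D, a receptor of hair-forming cells, was at 0.731 to 1.39 CPM in soles and 34.2 to 378 CPM in flanks.

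The soles also differed among themselves. Both second-set soles were above all first-set soles in the sums of terminal differentiation keratins, of cornified envelope genes (16380, 17540, 19640, 44260 and 35080 CPM in soles, against 5478, 2891, 4421, 3561 and 2762 CPM in flanks) and of alarmins (7771, 6429, 9105, 26310 and 14410 CPM in soles, against 115, 134, 137, 189 and 121 CPM in flanks). They were below all first-set soles in the sum of fibrillar collagens. KRT1 alone was higher in each second-set sole than in any first-set sole, and COL1A1 lower. The set and the age of its pigs cannot be told apart here, and how much epidermis each biopsy held was not tested.

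Of the 33 called genes whose second-set groups lay the other way without overlap, 12 were looked at by library, the 6 of widest reversed gap in each direction. DOCK3, a guanine nucleotide exchange factor known from neurons, fell in the first set (log2 fold change -1.51 ± 0.32, adjusted p = 0.00477), yet was at 5.34 and 9.31 CPM in second-set soles, against 1.80 and 1.76 CPM in second-set flanks. NFKBIZ, an inducible regulator of NF-kappa-B targets in keratinocytes, was at 98.2, 113, 102, 194 and 208 CPM in soles. Flanks had 219.7, 146, 127, 88.6 and 99.4 CPM (log2 fold change -0.66 ± 0.19, adjusted p = 0.0216; call lost without the 4-month volar, 7-month volar or 4-month flank library, adjusted p up to 0.0633; call lost with only the 6 libraries of both sites, adjusted p = 0.0708). TRIB1, a pseudokinase, was at 8.49, 21.8, 24, 45.9 and 58.5 CPM in soles. Flanks had 43.3, 40.4, 23.4, 26.3 and 22.1 CPM (log2 fold change -0.98 ± 0.34, adjusted p = 0.0444; call lost without the 4-month volar, 8-month volar, 4-month flank or 8-month flank library, adjusted p up to 0.123; adjusted p = 0.065 with the pig as block; call lost with only the 6 libraries of both sites, adjusted p = 0.13). In these genes the first and the second set ordered the sites in opposite ways.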

How the data were processed

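Skin RNA was measured in 20 libraries, 4 sites of each of 5 pigs, made with a stranded mRNA kit per the labels' protocols. The deposited values are estimated counts per Ensembl gene that the authors made with Salmon, as the submitters' processing notes name it. The sources used here do not give its version, genome build, annotation or use of strand, so values of antisense and overlapping genes are uncertain. Of all values 42.2% were not whole (tolerance 1e-09) and were rounded. Of 19280 gene identifiers, 14821 had a symbol in the supplied name tables, and 1511 had no count in any library. Library totals ran from 34077861 to 66906489 and limit the precision of low genes, beside the spread between pigs.

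The test was edgeR 4.0.16 in R 4.3.3 (filterByExpr, TMM, robust quasi-likelihood fit) on the 12 first-set libraries with 4 site means and 8 residual degrees of freedom. It was tested on simulated data. Alternatives used limma 3.58.1 and DESeq2 1.42.0. Each library of a site is a different pig, and the labels give sites of 1 pig the same animal, so pigs pair the libraries. Deviations of same-pig volar and flank libraries from their site means correlated at 0.06, 0.28 and 0.34 across genes in the 4-, 8- and 7-month pigs, and those of different pigs at -0.31 to 0.09. Levels are CPM with TMM over all 20 libraries. The pseudocount on the log2 scale was 0.5 CPM, and a fold against a group without counts was set at 3 counts over the group.

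Members, gene lists and tests were chosen with earlier results of these data known. The named genes are the 5 markers and a few genes written into the naming rule, the 12 called genes of largest fold change in each direction with at least 50 CPM and the same direction in 3 pigs, up to 4 members of each list by adjusted p and those against its direction, the 12 widest gaps in each direction and the 6 widest reversed gaps in each direction. Other named members, and the ratios between single libraries, were picked after seeing their values. Among the genes of that rule, KRT9, KRT6A, KRT16, KRT17, LORICRIN, FLG, HOXA13 and HOXD13 matched no symbol and are not analysed here. A few genes that entered the fits and the counts of the lists are not reported here. Of the 10 libraries not placed as sole or flank, those of the first set entered the fits, the scaling and the placement. Those of the second set entered only the scaling, the placement and the fit of all 20 libraries as labelled. Levels of HOXC8, HOXA9 and EN1 in some of these libraries are given for comparison.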

Additional observations from a re-analysis of the deposited data

Results flagged for a closer look

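Of 82 groups of 5 libraries examined for 1 library standing apart from the other 4, 3 were flagged, and chance flags about 1 in 20 groups. The sum of basal and simple keratins was 16.23 CPM in the 8-month volar library, above the other soles. The sum of proteoglycans and matrix proteins was 25340 CPM in the 5-month flank-matched library, above the other flanks. KRT71 was at 21.02 CPM in the 5-month sole-matched library, against at most 0.154 CPM in the other soles.

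Of the 33 called genes whose second-set groups lay the other way without overlap, 12 are listed here, the 6 of widest reversed gap in each direction. The difference between the sets was not tested. Higher in first-set volar but lower in second-set soles, as a difference of mean log2(CPM + 0.5) in the second set, were CILP (-2.306), GALNT2 (-0.5932), ZNF703 (-0.5252), PYCR3 (-0.4337), TACR3 (-0.4031) and ALX1 (-0.355). Lower in first-set volar but higher in second-set soles were DOCK3 (1.733), RAB27B (1.134), NFKBIZ (1.092), TRIB1 (1.087), CCDC9B (0.8948) and AMOTL2 (0.8049). Of these, the first-set call was lost in some fit that left out 1 library for all but CILP, DOCK3 and AMOTL2. GALNT2 had a log2 fold change of 0.41 ± 0.13 (call lost without the 4-month volar, 7-month volar, 4-month flank or 7-month flank library, adjusted p up to 0.0956; call lost with only the 6 libraries of both sites, adjusted p = 0.0709 and with upper-quartile scaling, adjusted p = 0.0612). CCDC9B had -0.60 ± 0.20 (call lost without any one of the 6 libraries, adjusted p up to 0.102). PYCR3 had 0.54 ± 0.16 (call lost without the 4-month volar, 8-month volar or 4-month flank library, adjusted p up to 0.0716; call lost with only the 6 libraries of both sites, adjusted p = 0.087 and with upper-quartile scaling, adjusted p = 0.0516). ZNF703 had 0.93 ± 0.33 (call lost without the 4-month volar, 7-month volar, 4-month flank, 8-month flank or 7-month flank library, adjusted p up to 0.166; adjusted p = 0.0574 with the pig as block; call lost with limma-voom, adjusted p = 0.0631, with only the 6 libraries of both sites, adjusted p = 0.0534, with upper-quartile scaling, adjusted p = 0.0657, with no count filter, adjusted p = 0.0544, with a filter of 1 CPM in 3 libraries, adjusted p = 0.0505 and with the 20 most abundant genes left out, adjusted p = 0.0536). RAB27B had -1.58 ± 0.52 (call lost without the 4-month volar, 7-month volar, 4-month flank or 7-month flank library, adjusted p up to 0.102; adjusted p = 0.072 with the pig as block; call lost with limma-voom, adjusted p = 0.0713 and with only the 6 libraries of both sites, adjusted p = 0.0704). TACR3 had 3.48 ± 1.17 (call lost without the 4-month volar, 8-month volar, 4-month flank, 8-month flank or 7-month flank library, adjusted p up to 0.136; call lost with limma-voom, adjusted p = 0.261). ALX1 had no count in first-set flank and 28 counts in first-set volar (call lost without the 4-month volar, 8-month volar, 4-month flank, 8-month flank or 7-month flank library, adjusted p up to 0.0877; call lost with limma-voom, adjusted p = 0.109).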

How the results depend on the processing

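Of 213 called genes named above, 144 lost neither direction nor call under any alternative except the fit of all 20 libraries as labelled. A gene filtered out of an alternative, or without an adjusted p in it, was not counted as lost there. The 144 are thus not all genes tested in every alternative. Of the 213, calls ended for 26 with limma-voom, 34 with only the 6 libraries of both sites and 6 with upper-quartile scaling. They ended for 4 without a count filter, 0 with median-of-ratios scaling and 0 of those given an adjusted p by DESeq2. Leaving out 1 library ended 18 to 30 calls, and 23 had no log2 fold change beyond 1. The cause was not tested. 3 genes whose first-set differences did not pass the test changed sign. ACAN (0.13) was at -0.3799 with limma-voom and -0.1468 with the pig as block, and at -1.225 to 0.5992 when 1 library was left out, with adjusted p = 0.0363 without the 4-month volar library. TNMD (0.164) was at -0.3273 with limma-voom and at -1.625 to 0.9097 when 1 library was left out. TBX5 (-0.192) was at -0.6417 to 0.1343 when 1 library was left out.

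The count of 5032 called genes (2588 higher, 2444 lower) was 3207 (1710 higher, 1497 lower) in the fit of 6 libraries, which has fewer residual degrees of freedom. It was 2680 (1025 higher) with a log2 fold change beyond 1 also required. Leaving out 1 library gave 3917 to 4656 called genes, 2151 to 2367 higher and 1741 to 2289 lower, and leaving out 1 of the 10 libraries gave 4988 to 5606 genes without overlap. Plain library totals gave 6638 such genes and upper-quartile scaling 4825, of which 1948 were higher. With the pig as replicate block, the count was 5858 (2992 higher, 2866 lower). The block ended the call of 8 named genes, each given with its value above, and of no other named gene.

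Taking all 20 libraries by their deposited labels, edgeR called 0 genes (0 higher and 0 lower), with 1805 at an unadjusted p under 0.05 and a lowest adjusted p of 0.11. In that fit the log2 fold change changed sign for A2ML1 (-0.07476), ABHD5 (-0.47), ACSBG1 (-0.0686), ALDH1A3 (0.25), ALOX12B (-0.43), ANO1 (0.31), AQP5 (-1.19), ARG1 (-0.37), ATP6V1B1 (0.27), CASP14 (-0.46), CDSN (-0.99), CERS3 (-0.19), CNFN (-0.88), COL9A1 (1.76), COX6A1 (-0.01866), CSTB (0.24), CUX1 (-0.29), CYP4F22 (-0.31), DEFB1 (-0.02392), DLX3 (-0.46), DLX5 (-0.04554), DLX6 (-0.53), EHF (0.80), ELF5 (0.11), ELOVL1 (-0.0385), EN1 (-0.01569), EREG (-0.24), GJA1 (-0.20), HOXC10 (-0.05125), IL18 (-0.63), KLK14 (-1.43), KLK5 (-0.90), KLK7 (-0.50), KLK8 (-0.37), KRT1 (-0.51), KRT78 (-1.07), LMX1B (1.54), LYPD2 (-0.29), PAX3 (3.55), PMP22 (0.13), RDH12 (-0.07914), S100A12 (-0.81), S100A8 (-0.56), SERPINB12 (-0.30), SERPINB7 (-0.52), SMTN (-0.008955), SP8 (-0.22), SPINK9 (-1.29), TCF7 (-0.56), TGM3 (-0.17) and TGM5 (-0.26).

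Estimated counts of similar genes, such as keratins and keratin-associated proteins, depend on how reads were split, and the sites of the second set rest on expression alone. Genes under about 1 CPM are measured by few reads.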

Other observations

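HOXA9 divided the feet by pig and not by site. It was at 34.2, 1.89, 24, 1.28 and 24.3 CPM in the sole-matched libraries, with the 4-, 7- and 5-month pigs high. In the first-set dorsal libraries, from the same 4-, 8- and 7-month pigs, it was at 29.6, 3.26 and 24.1 CPM. In the second-set libraries labelled snout, which were closest to first-set dorsal (r of 0.86 and 0.82), it was at 5.18 CPM in the 6-month and 23.6 CPM in the 5-month pig. TBX5, known from the fore limb, was at 3.37, 5.35, 1.72, 2.51 and 0.697 CPM in the sole-matched libraries. TBX4, known from the hind limb, was at 4.23, 1.83, 2.55, 1.78 and 3.42 CPM there. The soles high in HOXA9 were thus also the higher soles in TBX4. TBX5 did not divide them in this way, with the 4-month sole above the 6-month one. The 4-month flank was also the highest flank in TBX4, at 2.50 CPM against 0.88 to 1.22 CPM in the others. Whether a foot was a fore or a hind foot was not tested.

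The second-set libraries labelled volar, which are in neither group here, had EN1 at 0.542 CPM (6-month pig) and 0.744 CPM (5-month pig), and they were closest to first-set snout (r of 0.83 and 0.77). Members of the lists that were too low to test number 21, among them HOXB13, SHH, FGF8, TYR and ERRFI1, each listed at under 1 CPM in all 10 libraries.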
